A study of Mus musculus with 12 samples.

Results

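The genes described here encode the proteins of the cytosolic ribosome. They were taken by symbol from the array's annotation, as names of the Rpl and Rps series together with Rplp0 to Rplp2 and Rpsa. The Rps6k kinase genes were left out, as were pseudogenes, and each gene was read from its brightest probe set that is annotated with a single symbol. The rule gave 48 genes of 18194 with such a probe set, 22 of the small subunit and 26 of the large subunit. Many familiar members, among them Rpl3, are read on this array by probe sets annotated with several symbols, and these were not used as members.

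Ribosomal proteins assemble in the nucleolus with ribosomal RNA into a small subunit, which decodes the messenger RNA, and a large subunit, which joins the amino acids. Growth of the heart muscle cell requires new ribosomes, and production of ribosomal proteins is set largely by translation of their messages, which carry a pyrimidine tract at their very start and answer to mTORC1, the growth kinase complex. A few ribosomal proteins have paralogues with a restricted tissue range. Rpl3l is the paralogue of Rpl3 found in heart and skeletal muscle.

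The arrays hold RNA of the left ventricle (LV) of Balb/c mice that were 6 to 8 weeks old. In TAC the transverse aorta was constricted, which loads the ventricle with pressure, and hearts were taken at 1 day, 1 week and 1 month. In MI (myocardial infarction) hearts were taken at 1 week and 1 month. The array labels call it coronary ligation, and the series text describes an occlusion followed by reperfusion. Angiotensin II (Ang II), a pressor hormone, was infused at 2 mg/kg/day for 1 week. Each TAC and MI array has its own sham-operated control of the same time, tied to it by the sample titles, and the Ang II array has a control that, per the series text, received saline by osmotic minipump. On the 1 day harvest the sources differ: the labels of the arrays assign it to TAC, which was followed here, and the series text to MI. There is 1 array per group, made from 5 µg of total RNA, and whether an array holds 1 animal or a pool is not stated in the labels. The replication of procedure against control therefore lies in the 6 pairs of arrays. The p-values, standard errors (SE) and confidence intervals come from limma fits. These fits draw a gene's spread between the pairs toward that of other genes of like signal.

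The 12 arrays had 2% trimmed mean signals of 105 to 131 as deposited and were scaled to a common value. The 3' to 5' signal ratio, a check of RNA integrity, lay between 1.18 and 1.33 for actin and between 0.79 and 0.854 for Gapdh. The markers of cardiomyocytes were bright on every array, as the LV label requires. Summed signals of 8 cardiomyocyte markers were 68960 to 84112 on procedure arrays and 80497 to 88066 on control arrays. Sums of 10 fibroblast markers were 16962 to 42965 on procedure arrays and 12461 to 16601 on control arrays, and 7 of the 10 passed the test as higher. Sums of 12 macrophage markers were 4416 to 13805 on procedure arrays and 3863 to 6749 on control arrays, and 8 of the 12 passed as higher. Of all tested genes, 5.16% passed as higher. No marker of these 3 lists lay at the signal floor on all arrays. In tissue RNA, fewer cells of a type and less RNA per cell cannot be told apart.

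Of the 48 genes, 46 passed the filter on dim probe sets. Rpl39l, a paralogue of Rpl39 known from testis, and Rps16 did not pass, with mean probe-set signals of 12 and 4.77. Among the 46, 37 had a mean probe-set signal above 1000, a level that 978 of the 11624 tested genes reached. The other 9, which are Rpl12, Rpl14, Rpl27a, Rpl37, Rpl39, Rpl7l1, Rps25, Rps27 and Rps6, were read from dim probe sets. The level of a probe set also depends on its probes, so this does not rank the genes. The dim probe sets were also the noisier ones. The SD of a gene's log2 ratio over the 6 pairs had a median of 0.147 among members above 1000 and of 0.367 among those below.

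Across the 6 pairs, Rpl3l fell, and no other cytosolic ribosomal protein gene was called in either direction. In the paired limma fit, 1 of the 46 members passed at an adjusted p under 0.05, against 10.9% of all tested genes. None of the 46 was called higher, against 5.16% of all tested genes, and Rpl3l alone was called lower, against 5.7%. At an unadjusted p under 0.05, 1 of 46 members passed, again Rpl3l, against 29% of all genes, and this count depended on the scaling, with 11 members passing as deposited and 12 with quantile normalization. A single direction in all 6 pairs was likewise seen in 1 of 46 members, against 19.4% of all genes. For 0 of 46 members did all 6 procedure arrays lie above all 6 controls (1.36% of all genes) or below them (1.37%). The next smallest adjusted p among the members was 0.25, for Rps29, a zinc-binding protein of the small subunit.

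For the other 36 members above 1000, the mean log2 ratio of procedure over control ran between -0.097 for Rps2 and 0.16 for Rps26. Standard errors of the limma fit lay between 0.0507 and 0.0971 (n = 6 pairs). The 95% confidence intervals of these 36 lay between -0.248 and 0.355, and 22 members had an interval wholly within 0.2 of 0. These intervals describe each gene's mean change over the pairs under the scaling used, and leave out the choice of scaling. As deposited, Rps2 averaged -0.00016 and Rps26 0.25, and with quantile normalization Rpl41 and Rps7 were called higher. A miss of the threshold does not show equality.

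**Figure D1:**
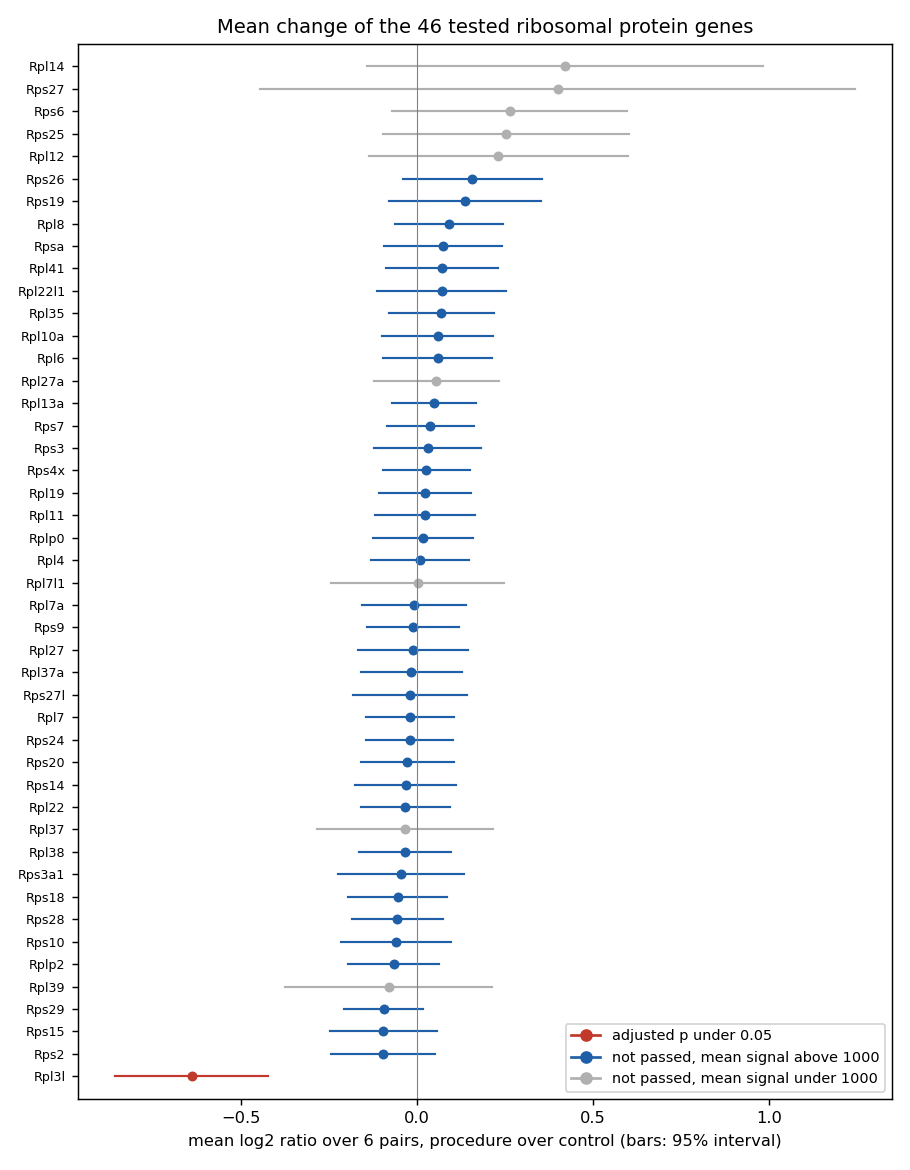
Mean log2 ratio of procedure over control for each of the 46 tested ribosomal protein genes (x axis). Genes run down the y axis in order of that mean, and bars give the 95% interval of the limma fit over 6 pairs. Rpl3l at -0.64 stands alone at the bottom, and the widest intervals belong to genes with a mean signal under 1000 (grey).

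Rpl3l had scaled signals of 1522, 1293 and 1408 at 1 day, 1 week and 1 month of TAC, against 3093, 2042 and 2002 in the matching shams. In MI it had 1316 and 1502 at 1 week and 1 month, against 2456 and 2135 in the shams. With Ang II it had 2173, against 2573 in the control. Every procedure array lay below its own control. The 5 TAC and MI arrays, at 1293 to 1522, also lay below all 6 controls, at 2002 to 3093, while the Ang II array lay within the range of the controls. Rpl3l is thus not among the 1.37% of genes with all 6 procedure arrays below all 6 controls. The share of genes with 5 such arrays below was not counted. The log2 ratios were -1.02, -0.66 and -0.51 for TAC at 1 day, 1 week and 1 month, -0.90 and -0.51 for MI at 1 week and 1 month, and -0.24 for Ang II. At 1 day of TAC the sham, at 3093, was the highest of the 6 controls. The TAC array of that pair, at 1522, was also the highest of the 5 TAC and MI arrays, so the Rpl3l signal was not lowest there.

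The mean log2 ratio of Rpl3l was -0.64 ± 0.098 (SE of the limma fit, n = 6 pairs), a signal 35.8% lower on average. The same fit gave a 95% interval of -0.86 to -0.42 and an adjusted p of 0.00748. The SD of the 6 Rpl3l pair ratios themselves was 0.285. Among all tested genes, 217 had a lower mean. Controls of the same time differed from each other in Rpl3l by 0.067 to 0.33 on the log2 scale, so the Ang II difference is no larger than that between controls. In a fit with an effect for each model, Rpl3l averaged -0.73 ± 0.13 in TAC (3 pairs, adjusted p = 0.0356; 2.34% of all genes passed, 1.26% as lower) and -0.70 ± 0.15 in MI (2 pairs, adjusted p = 0.0773; 0.981% of all genes passed, 0.155% as lower). The difference of TAC minus MI was -0.026 ± 0.20, with an adjusted p of 0.999. A single probe set reads Rpl3l, so no second reading of the gene was available.

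**Figure D2:**
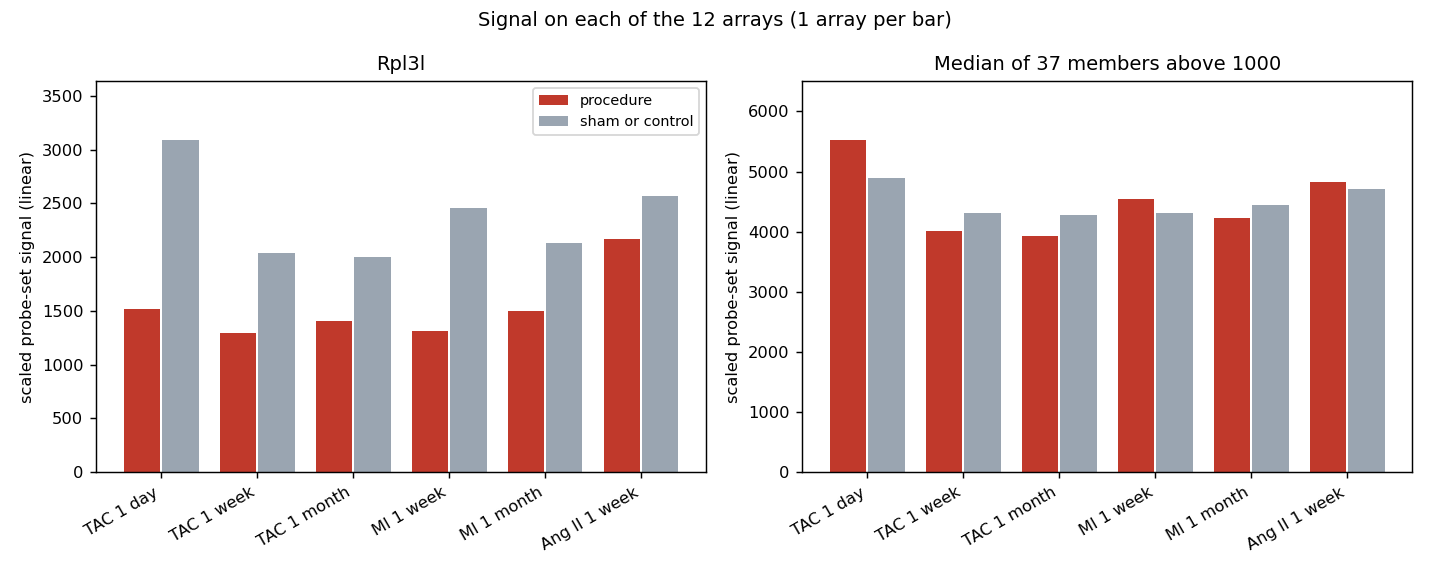
Scaled signal on each of the 12 arrays (y axis, linear, from 0) for Rpl3l and for the median of the 37 members above 1000, with the procedure array left of its control in each of the 6 pairs (x axis) and 1 array per bar. Rpl3l was lower on every procedure array, whereas the member median lay on either side of its control.

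Rpl3l is a transcript of striated muscle cells, so markers of cardiomyocytes are given beside it. Of 8 cardiomyocyte markers tested, 2 passed as lower, where 5.7% of all tested genes did. They were Ryr2, the calcium release channel, at -0.31 ± 0.057 (adjusted p = 0.0143), and Pln, the brake on the calcium pump, at -0.23 ± 0.061 (adjusted p = 0.0412; SE, n = 6 pairs). The median log2 ratio of the 8 markers was -0.044, -0.27 and -0.32 for TAC at 1 day, 1 week and 1 month, -0.20 and -0.13 for MI at 1 week and 1 month, and -0.013 for Ang II. The tested genes above 1000 had medians of -0.19, -0.16, -0.11, -0.24, -0.12 and -0.013 in the same order. Against those genes, the markers lay clearly lower at 1 week and 1 month of TAC, and near them or higher in the other pairs. All tested genes had a median of 0.009 in both MI pairs, and against these the markers were lower in MI too. Each of the 8 markers had a ratio below 0 in both MI pairs. At 1 day of TAC Rpl3l differed most from its own sham, which had the highest Rpl3l signal of the controls. Ryr2 and Pln had ratios of -0.31 and -0.28 in that pair, and the other 6 markers lay between -0.054 and 0.11. The part of cell composition in the Rpl3l result was not tested.

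No other paralogue passed. Rpl22l1, the paralogue of Rpl22, had signals of 980 to 1689 with a median of 1315 on procedure arrays, against 997 to 1601 with a median of 1215 on controls. Its mean log2 ratio was 0.07 ± 0.083, with its highest value, 0.38, at 1 month of MI, and its partner Rpl22 averaged -0.032 ± 0.057. Rps27l, a p53-inducible relative of Rps27, had signals of 1163 to 1414 on procedure arrays and 1192 to 1385 on controls, with a mean log2 ratio of -0.02 ± 0.073. Rpl7l1 averaged 0.0019 ± 0.11 and Rpl7 averaged -0.02 ± 0.056 (SE, n = 6 pairs for each). The groups overlapped for all of these genes.

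The start regions are shown for Rpl3l, the gene called, and for some other members, and the share of genes with each motif searched is given below. RefSeq promoter windows (GRCm38.p6, 250 bases before to 50 after a start) were available for 43 of the 48 genes and for 27025 genes in all. Shorter windows are printed for Rpl3l, for the 3 members above 1000 with 1 listed start that had the highest ratio at 1 day of TAC, and for Rps2, which had the lowest mean of such members. They run from 100 bases before to 20 after the start, and capitals mark matches to the motifs searched. Rpl3l is on the plus strand at chr17:24727726-24727845, Rps26 on the minus strand at chr10:128626487-128626606 and Rpsa on the plus strand at chr9:120127666-120127785. Rpl6 is on the plus strand at chr5:121204401-121204520 and Rps2 on the plus strand at chr17:24719963-24720082.
Rpl3l: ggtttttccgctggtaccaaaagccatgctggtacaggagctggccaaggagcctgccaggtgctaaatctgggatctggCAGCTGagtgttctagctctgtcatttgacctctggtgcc
Rps26: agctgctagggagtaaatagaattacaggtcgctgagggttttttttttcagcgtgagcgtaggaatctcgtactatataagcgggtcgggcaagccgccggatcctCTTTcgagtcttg
Rpsa: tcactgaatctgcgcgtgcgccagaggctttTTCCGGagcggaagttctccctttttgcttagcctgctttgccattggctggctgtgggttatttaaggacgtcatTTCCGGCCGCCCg
Rpl6: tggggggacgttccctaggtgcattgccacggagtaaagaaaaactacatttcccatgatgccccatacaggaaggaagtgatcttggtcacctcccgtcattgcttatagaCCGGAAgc
Rps2: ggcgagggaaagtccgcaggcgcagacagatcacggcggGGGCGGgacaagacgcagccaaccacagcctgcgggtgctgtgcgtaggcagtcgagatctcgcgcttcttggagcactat

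A start CTTT, searched within 15 bases of the start on the transcribed strand as a piece of a pyrimidine tract, was held by 32.6% of the 43 members and by 13.8% of all genes. Its reverse complement in the same place was held by 6.98% of members and 13.4% of genes. CCGGAA, the core bound by ETS factors, stood on either strand in 65.1% of members and 16.7% of genes. GGGCGG, the Sp1 box, stood in 58.1% of members and 38.2% of genes. The YY1 letters ATGGCGG stood in 16.3% of members and 4.69% of genes, and AAGATGGC, which overlaps them in ATGGC, in 9.3% and 3.19%. TATAAA stood in 14% of members and 15.7% of genes. Rpl3l held none of these 6 motifs in its windows. How many other members held none of them was not counted, and a link between motifs and ratios was not tested. Rpl3l held the E box CAGCTG, 20 bases before its first listed start, which stood in 6.98% of members, Rpl3l among them, and 18.3% of genes. At its other listed start it held TAAAAATA, the MEF2 site, which stood in 1 of the 43 members (2.33%), Rpl3l itself, and in 3.09% of genes. These matches describe the letters and show no binding.

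The 48 genes are spread over 16 chromosomes of GRCm38.p6. Rps2 (chr17:24718121-24721927) and Rpl3l (chr17:24727826-24736143) lie 5898 bases apart, with 1 gene, the respiratory chain gene Ndufb10, wholly between them. Rps2, a protein at the messenger RNA entry of the small subunit, had signals of 8405, 5991 and 5955 at 1 day, 1 week and 1 month of TAC, against 7463, 7021 and 7125 in the shams. It had 7032 and 6424 at 1 week and 1 month of MI, against 7162 and 7191 in the shams, and 7132 with Ang II, against 7513 in the control. Its procedure arrays lay on both sides of the controls, and its mean log2 ratio of -0.097 ± 0.066 did not pass (adjusted p = 0.368). At 1 day of TAC the log2 ratios of these neighbours were 0.17 for Rps2 and -1.02 for Rpl3l. In the other 5 pairs both genes were lower than in the control.

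The level of the members as a group differed from pair to pair. The median log2 ratio of the 46 was 0.20 at 1 day of TAC (SD over members 0.294), -0.12 at 1 week (SD 0.302) and -0.11 at 1 month (SD 0.157). It was 0.042 at 1 week of MI (SD 0.342), -0.039 at 1 month (SD 0.236) and 0.0016 with Ang II (SD 0.292). The corresponding medians of all tested genes were -0.074, -0.0028, -0.0031, 0.009, 0.009 and -0.0073. Within the 37 members above 1000, the SD over members was 0.26, 0.133, 0.112, 0.19, 0.142 and 0.0815 in the same order of pairs. Scaled medians of the members between controls of the same time differed by 0.032 to 0.13, which the TAC 1 day median alone exceeded. As deposited those control differences were 0.026 to 0.096, and the medians of TAC 1 month (0.20) and MI 1 week (0.20) exceeded them while that of TAC 1 day (0.049) did not. Each pair is 1 array against 1 array, which allows no test of its median.

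At 1 day of TAC, 41 of the 46 members had a ratio above 0, against 44.9% of all tested genes. The share above 0 was 9 of 46 at 1 week of TAC (49.7% of all genes) and 10 of 46 at 1 month (49.6%). It was 30 of 46 at 1 week of MI (50.8%), 20 of 46 at 1 month (51%) and 24 of 46 with Ang II (48.6%). The TAC 1 day pair gave the highest ratio of the 6 pairs for 31 of the 46 members, against 20.5% of all tested genes. The shift was small for most members, since a log2 ratio of 0.5 was reached by 8 of 46 (18.3% of all genes), 6 of them read from dim probe sets, and a ratio of -0.5 or less by 1 of 46 (23.2%), which was Rpl3l. In the other pairs few members passed 0.5 in either direction. At 1 week of TAC 1 was higher (12.1% of all genes) and 2 lower (7.85%), and at 1 month 0 were higher (11%) and 1 lower (9.27%). At 1 week of MI 1 was higher (18.5%) and 1 lower (11.9%), at 1 month 2 were higher (12.5%) and 2 lower (7.19%), and with Ang II 1 was higher (7.5%) and 0 lower (6.43%).

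Markers of infiltrating cells also differed by pair. The median log2 ratio of the 12 macrophage markers was 0.65, 0.21 and 0.42 for TAC at 1 day, 1 week and 1 month, 1.08 and 0.92 for MI at 1 week and 1 month, and 0.18 for Ang II. That of the 5 tested neutrophil markers, of 7 listed, was 2.5, -0.95, 0.77, 2.62, 1.63 and 0.17 in the same order. Summed signals of the neutrophil markers were 95.5 to 1548 on procedure arrays and 100.03 to 405 on control arrays, no marker lay at the floor on all arrays, and none passed the test. The 9 listed lymphocyte markers were all below the filter or unnamed, with sums of 65.4 to 99.1 on procedure arrays and 60.6 to 137 on control arrays. The part of these cells in the member medians was not tested.

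The 2 members above 1000 that reached 0.5 were Rps19 and Rps26, both small subunit proteins whose human genes are mutated in Diamond-Blackfan anaemia. Rps26 had signals of 4612, 2897 and 2671 at 1 day, 1 week and 1 month of TAC, against 3045, 3001 and 2902 in the shams. It had 3316 and 2850 at 1 week and 1 month of MI, against 2828 and 2610 in the shams, and 3175 with Ang II, against 2843 in the control. The TAC 1 day array stood above the other 11 arrays, which spanned 2610 to 3316. Rps19 had 3595 on that array, and 1779 to 2629 on the other 11. Their mean log2 ratios over the 6 pairs were 0.16 ± 0.089 for Rps26 (adjusted p = 0.274) and 0.14 ± 0.097 for Rps19 (adjusted p = 0.384). Without the TAC 1 day pair they were 0.069 for Rps26 and 0.04 for Rps19. Rpsa, also known as the laminin receptor precursor, had 5370 on the TAC 1 day array and 3003 to 4145 on the other 11.

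Set against the median of the 6 controls, the 37 members above 1000 had a median of 0.29 on the TAC 1 day array and of 0.10 on its sham. The TAC 1 day array was the highest of all 12 for 28 of these 37 members, and for 18.9% of the 978 genes above 1000. The TAC 1 week array was the lowest of 12 for 15 of the 37 and the TAC 1 month array for 18, against 17.6% and 8.49% of the 978 genes. The genes above 1000 had medians in the pairs of -0.19, -0.16, -0.11, -0.24, -0.12 and -0.013, in the order TAC 1 day, 1 week, 1 month, MI 1 week, 1 month and Ang II. The 37 members had pair medians of 0.19, -0.11, -0.13, 0.045, -0.007 and -0.0022 in that order, higher than those of the genes above 1000 in 5 pairs and lower at 1 month of TAC.

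The scaling of the arrays decided the sign of several of these medians. With the signals as deposited, the member medians were 0.049, 0.096 and 0.20 for TAC at 1 day, 1 week and 1 month, 0.20 and 0.019 for MI at 1 week and 1 month, and -0.0068 for Ang II. All genes shifted along with them, with medians of -0.23, 0.21, 0.31, 0.16, 0.067 and -0.016 in the same order. Relative to all genes, the members stood at 0.28, -0.11, -0.11, 0.033, -0.048 and 0.0089 with the signals as deposited or scaled. Quantile normalization put the members above all genes in all 6 pairs, by 0.32, 0.083, 0.05, 0.19, 0.082 and 0.0011. The positive member median at 1 day of TAC held under scaled, deposited, quantile and median-centred signals. The negative member medians at 1 week and 1 month of TAC turned positive with the deposited and the quantile-normalized signals. Relative to all genes, the members in these pairs stayed at -0.11 as deposited and turned positive only with quantile normalization. The probe sets annotated with several symbols, of which 79 were above 1000, had scaled medians of 0.22, -0.13, -0.11, 0.049, -0.017 and -0.0084.

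**Figure D3:**
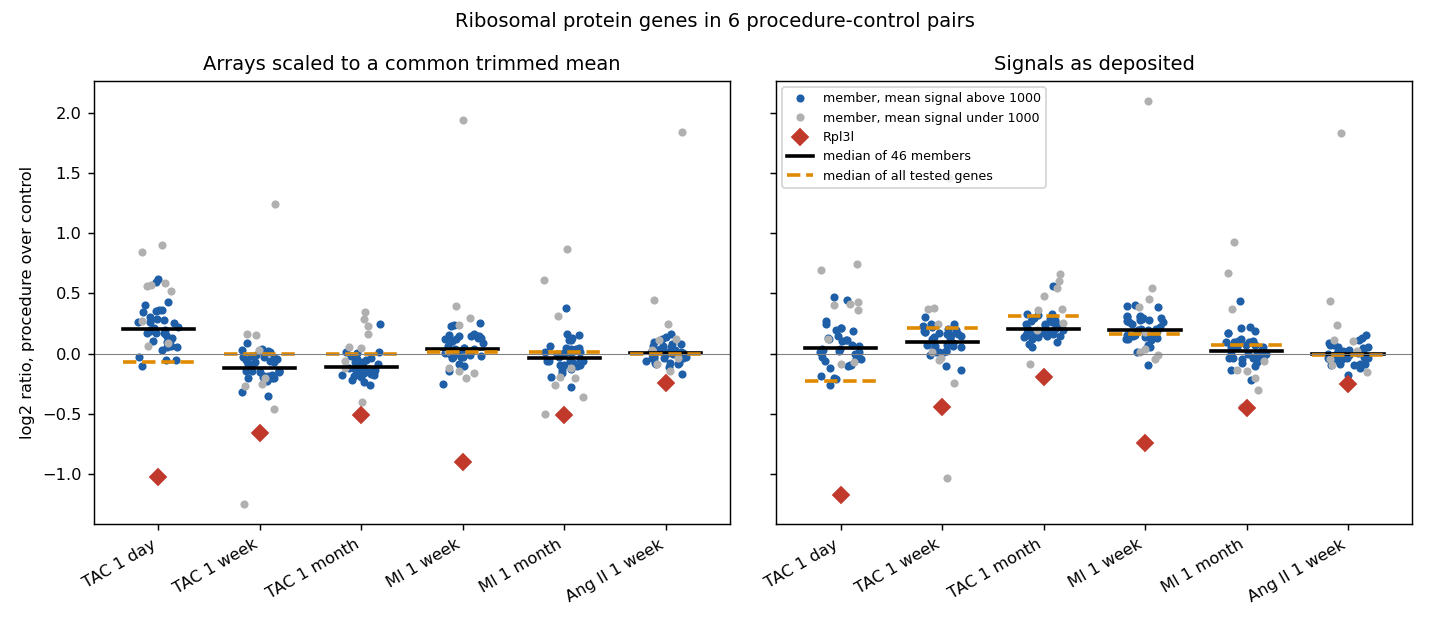
Log2 ratio of procedure over control (y axis) for the 46 tested members in each of the 6 pairs (x axis), with arrays scaled to a common trimmed mean on the left and as deposited on the right. Points are genes, the black bar is the member median and the dashed bar the median of all tested genes. Rpl3l (diamond) lies below 0 in every pair under both, while the member median at 1 week and 1 month of TAC lies below 0 with scaling and above 0 as deposited.

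The subunits are given side by side. At 1 day of TAC the median was 0.17 for the 21 tested small subunit genes and 0.26 for the 25 tested large subunit genes. For the small and the large subunit it was -0.13 and -0.11 at 1 week of TAC, -0.13 and -0.076 at 1 month of TAC, 0.10 and 0.024 at 1 week of MI, -0.066 and -0.007 at 1 month of MI, and -0.0022 and 0.015 with Ang II. Among the 18 genes of each subunit above 1000, without Rpl3l, the medians at 1 week of MI were 0.063 and 0.046. Rplp0, the base of the stalk that recruits elongation factors, averaged 0.017 ± 0.064, and Rplp2, an acidic protein of that stalk, -0.066 ± 0.058. Rpl11, which joins the 5S ribonucleoprotein and can bind Mdm2, averaged 0.023 ± 0.064. Fau, the fusion gene that encodes Rps30, lies outside the naming rule and averaged 0.066 ± 0.065 (SE, n = 6 pairs for each). Of 9 listed genes mutated in human Diamond-Blackfan anaemia, 6 were tested and none passed in either direction, with a median of 0.03.

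The largest single differences belonged to dim probe sets. Rps27 had signals of 63.0, 35.6 and 63.3 at 1 day, 1 week and 1 month of TAC, against 60.2, 84.8 and 56.5 in the shams. It had 136 and 29.0 at 1 week and 1 month of MI, against 35.3 and 37.2 in the shams, and 156 with Ang II, against 43.7 in the control. Its ratios ran from -1.25 to 1.94, and its mean of 0.40 ± 0.38 did not pass (adjusted p = 0.53). Rpl14 averaged 0.42 ± 0.25, Rps6, a target of the S6 kinases, 0.26 ± 0.15, Rps25 0.25 ± 0.16 and Rpl12 0.23 ± 0.17, and none of these passed. Each of these means moved by over 1.5 times when 1 pair was left out. Without the TAC 1 week pair Rpl14 averaged 0.26, Rps27 0.73 and Rps6 0.41, and without the TAC 1 day pair Rps25 averaged 0.12 and Rpl12 0.11. Leaving out MI at 1 week put Rps27 at 0.092, and leaving out Ang II put it at 0.11, while Rps25 averaged 0.38 with TAC at 1 month left out. The groups of these genes overlapped. Among 17 members with more than 1 probe set above 1000, the mean ratios of a gene's probe sets differed by a median of 0.0776 and at most by 0.202, for Rps18. Rpl41, which encodes a very short peptide, had 2 such probe sets that gave 0.34 and -0.45 at 1 day of TAC.

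No member's change in TAC was called different from its change in MI. For TAC minus MI, 0 of 46 members and 0% of all genes passed the limma fit at an adjusted p under 0.05. At an unadjusted p under 0.05, 0 of 46 members and 4.53% of all genes passed, and the smallest unadjusted p of a member was 0.148, for Rps27.

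Genes that make ribosomes or work with them had other values, and the differences between lists were not tested. Mitochondrial ribosomal proteins, which build the separate ribosome that translates mitochondrial messages, had 25 of 76 genes lower and 0 higher, with a median mean ratio of -0.25, where 5.7% of all genes were lower. Mrpl39 averaged -0.55 ± 0.088 (adjusted p = 0.0094) and Mrps35 -0.43 ± 0.096 (adjusted p = 0.0245), while Mrpl52 averaged 0.081 ± 0.075 and Mrpl54 0.0033 ± 0.076. Their medians by pair were -0.42, -0.25 and -0.13 for TAC at 1 day, 1 week and 1 month, -0.47 and -0.24 for MI at 1 week and 1 month, and -0.0038 for Ang II. Ribosome biogenesis genes had 39 of 40 tested and none called in either direction, with a median of 0.76 at 1 day of TAC and of 0.0011 to 0.15 in the other 5 pairs. In that list Myc, the growth transcription factor, had a log2 ratio of 4.75 at 1 day of TAC, with a mean over the pairs of 1.55 ± 0.52 (adjusted p = 0.0821), and Nhp2 averaged 0.50 ± 0.16. At the low end were Rrs1 at -0.20 ± 0.091 and Nop10 at -0.19 ± 0.074.

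Of 32 tested initiation factors of 37 listed, 1 was called higher and 0 lower, a share no larger than the 5.16% and 5.7% of all genes. The 1 called was Pabpc1, the poly(A) binding protein, whose message carries the same kind of pyrimidine tract, higher in 6 of 6 pairs with a mean of 0.41 ± 0.10 (adjusted p = 0.0371). Eif5 averaged 0.37 ± 0.14, Eif2b5 -0.23 ± 0.10 and Eif4e, the cap-binding protein, -0.21 ± 0.080, and these did not pass. Of 11 tested elongation factors of 12 listed, none was called. Eef1a1, which carries aminoacyl-tRNA to the ribosome, averaged 0.22 ± 0.064 (adjusted p = 0.0526), and Eef1a2, its muscle and neuron paralogue, -0.21 ± 0.062 (adjusted p = 0.0593). Eef1a1 was higher in 6 of 6 pairs and Eef1a2 lower in 5 of 6, although neither passed. A single direction in all 6 pairs was held by 19.4% of all tested genes. Eif5a2, a paralogue of the elongation factor Eif5a, averaged 0.19 ± 0.25, and Hbs1l, a ribosome rescue factor, -0.21 ± 0.068.

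Of 25 tested genes of mTORC1 signalling, 1 was called higher and 1 lower, shares near the 5.16% and 5.7% of all genes. Pdpk1, a kinase upstream of Akt and the S6 kinases, was higher in 6 of 6 pairs with a mean of 0.30 ± 0.076 (adjusted p = 0.0378). Akt2 was lower in 6 of 6 pairs with a mean of -0.43 ± 0.094 (adjusted p = 0.0238; SE, n = 6 pairs). Ddit4 at 0.40 ± 0.13, Sesn2 at 0.37 ± 0.27 and Sesn1 at -0.36 ± 0.13, all inhibitors of mTORC1, did not pass.

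**Figure D4:**
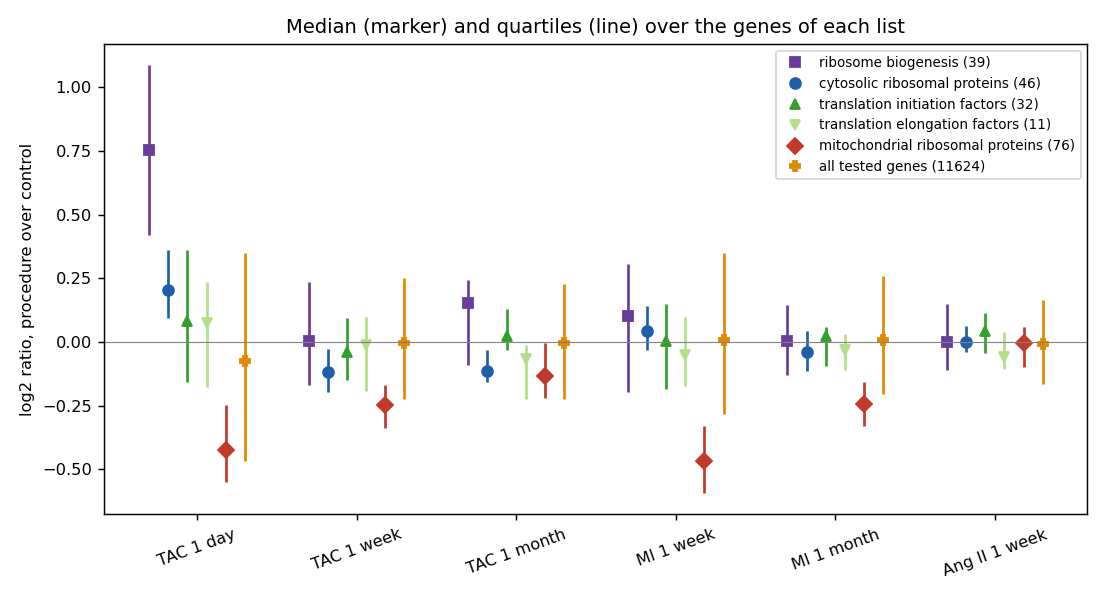
Median (marker) and quartiles (line) of the log2 ratio of procedure over control (y axis) over the genes of 5 lists and of all tested genes in each of the 6 pairs (x axis). Ribosome biogenesis genes stand at 0.76 at 1 day of TAC, cytosolic ribosomal proteins at 0.20, and mitochondrial ribosomal proteins lie below 0 in all 6 pairs.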

How the data were processed

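Affymetrix mouse arrays were read from the series value table, 1 column per sample. The authors deposited linear signal intensity values per probe set, made with GCOS per the submitters' processing notes. Signal algorithm and target scaling: not given in the sources used here. Arrays were scaled to a common 2% trimmed mean, values below the 20th percentile were set to that percentile before taking log2. The brightest single-symbol probe set stood for a gene, and the 11624 genes whose mean exceeded the 40th percentile over probe sets with a name were tested. The paired fit (limma 3.58.1 in R 4.3.3, intensity trend, statmod 1.5.0, Benjamini-Hochberg over all tested genes) used the pair as a block, paired by procedure and time in the labels, with 5 residual degrees of freedom. A fit with TAC, MI and Ang II effects left 3. On simulated data of 11624 genes, 38 of 100 genes changed by 0.5 on the log2 scale and 80 of 100 changed by 1 were recovered, with 7 false calls. The number of arrays limits the precision. Alternatives changed the scaling, floor, probe sets, filter, block, trend and pairs used. A planned comparison of Rpl3l with Rpl3 was not made, since Rpl3 has no single-symbol probe set in the annotation used here. Members and gene lists were chosen with earlier results of these data known. Named genes were all paralogues, the 6 highest and 6 lowest means, the extremes of each pair and the brightest and dimmest members, and from other lists the 2 highest and 2 lowest means. Pdpk1, Ryr2 and Pln were named after their values were seen, as members of small counts. Gene names come from the platform annotation and RefSeq.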

Additional observations from a re-analysis of the deposited data

Results flagged for a closer look

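The 6 pair ratios of each gene given with full values, and those of the member median, made 16 sets, and in 1 of them, that of Rps6, 1 pair stood far from the others. Its log2 ratio at 1 week of TAC was -0.457, with a gap to the nearest of the other pairs that took 0.642 of the whole range, above Dixon's critical value. Chance marks about 1 in 20 such sets. Its signals were 67.7 on the TAC 1 week array and 92.9 on its sham, from a dim probe set.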

How the results depend on the processing

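Rpl3l was lower in all 17 settings, the reported fit included, with a mean log2 ratio of -0.72 to -0.54. It passed in 16 (adjusted p 0.00407 to 0.0665). The settings for floor, filter, probe sets, block and trend could not change its mean, since Rpl3l has 1 probe set with signals far above the floor. They moved only its adjusted p, and its mean could change only with the scaling and the pairs left out. Without the filter on dim genes its mean stayed at -0.64 with an adjusted p of 0.0665, and the count of members past the threshold was 0, as no gene of 18194 passed in that setting, where 1 member had an unadjusted p under 0.05. At that unadjusted threshold 11 members passed as deposited and 12 with quantile normalization, against 1 in the reported fit. Quantile normalization called 3 members, Rpl3l lower and Rpl41 and Rps7 higher. All tested genes called numbered 1262 in the reported fit and 800 as deposited, 694 with the mean of all probe sets, 473 with no pair block and 241 with no intensity trend. Leaving out 1 pair at a time gave 256 to 1485, with 1 member called each time. The pair block was kept throughout, and without it Rpl3l was again the 1 member called.

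The member medians of the TAC and MI pairs moved with the scaling. That of Ang II lay between -0.0068 and 0.0271 in the settings run for it, other than the probe sets with several symbols (-0.0084). As deposited they were 0.0493, 0.0959 and 0.201 for TAC at 1 day, 1 week and 1 month and 0.198 for MI at 1 week. With quantile normalization they were 0.0639 and 0.0447 for TAC at 1 week and 1 month, and 0.154 and 0.0746 for MI at 1 week and 1 month. With median centring MI at 1 week was -0.0653. The cause was not tested.

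Signs of members whose means lay near 0 also turned, none of them past the threshold. As deposited Rplp2 was 0.0307, Rpl39 0.0161, Rps29 0.00195, Rps15 0.00144 and Rps27l 0.077. With quantile normalization Rplp2 was 0.0569, Rps29 0.0303, Rps15 0.012, Rps2 0.0344, Rps27l 0.0205 and Rpl7l1 -0.00625. Rpl7l1 was -0.0324 with median centring. Rps27l was 0.0314 when a gene's probe sets were averaged and 0.0839 without x and s probe sets. Leaving out 1 pair at a time, Rpl39 ran from -0.214 to 0.00347, Rps27l from -0.0728 to 0.0268 and Rpl7l1 from -0.111 to 0.0433. The restriction to members above 1000 and the probe sets with several symbols were chosen after seeing the data. With 1 array per group and 6 pairs, changes of 0.5 on the log2 scale were often missed in simulated data, where 38 of 100 were recovered. These were drawn from all tested genes, and smaller changes were not simulated.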
